A study of Rattus norvegicus with 6 samples.

Results

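The 10 genes described here encode heat shock proteins of the cytosol and of the mitochondrion, with the cochaperone Bag3. They were taken by symbol, 10 of the 21857 gene symbols counted in each library. The genes are Hspb1, Hspb8, Bag3, Dnajb1, Hspa8, Hsph1, Hsp90aa1, Hsp90ab1, Hspd1 and Hspe1, and all 10 symbols were found. Neonatal rat cardiac fibroblasts (NRCFs), primary cells from the hearts of healthy rats at most 3 days old, were transfected with a plasmid holding the rat FTO coding sequence or with the empty plasmid (Vector), and RNA was collected 48 h later. FTO is a demethylase that takes the N6-methyladenosine mark off RNA. The series text names Sprague-Dawley rats, whereas the sample labels give the strain as Noway. Vector comprised 3 libraries of genotype WT and the other group 3 libraries of genotype FTO overexpression. Both groups were transfected, with the pcDNA 3.1 backbone, and the sources used here do not say what share of the cells took up the plasmid. The 48 h are taken from the study's methods. The labels do not say whether the libraries of a group came from separate cultures, so the p-values measure the spread between these libraries, which may be technical.

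Heat shock proteins keep other proteins folded. HSP70 proteins bind exposed stretches of a client, J proteins bring clients and set off ATP hydrolysis, and exchange factors such as the HSP110 and BAG proteins let the client go. HSP90 takes over clients that are nearly folded, small heat shock proteins hold unfolded ones without ATP, and the HSP60 ring with its HSP10 lid folds proteins inside mitochondria. When unfolded protein accumulates, heat shock factor 1 (HSF1) binds heat shock elements, repeats of the letters GAA in alternating orientation, near the starts of these genes. In the heart, HSPB8 and BAG3 act together in clearing damaged proteins of the contractile apparatus.

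The counted reads numbered 13178952 to 17857999 per library. Values are given as CPM, counts per 1000000 counted reads, after TMM scaling (trimmed mean of M-values). Differences between the groups were assessed with edgeR's quasi-likelihood test, adjusting by Benjamini-Hochberg over all 12941 genes tested. Fto itself was at 87.3 to 89.6 CPM in Vector and at 90.7 to 93.2 CPM in the second group, a fold change of 1.05 (95% interval 0.976 to 1.12, adjusted p-value 0.239 in edgeR). The values of the groups did not overlap, as was the case for 70.3% of all genes tested. The test nonetheless detected no rise of Fto, and the second group is called the libraries labelled FTO throughout. The study states that it checked the transfection of its FTO plasmid by qRT-PCR. Its supplement also shows FTO protein after transfection with the plasmid. The sources used here do not say whether the sequenced cultures were among those checked. All 8 fibroblast markers tested differed between the groups at an adjusted p-value under 0.05 in edgeR, 4 higher and 4 lower. That threshold, also used for the marker lists below, was passed by 65.9% of all genes tested. The summed level of the fibroblast markers went from between 14610 and 14699 CPM to between 11980 and 12354 CPM. This sum joins large opposite changes, with log2 fold changes of single markers from -1.68 to 6.90. Of 8 cardiomyocyte markers tested, 7 were higher and 1 lower, and the sum of the list went from between 1675 and 1709 CPM in Vector to between 2617 and 2697 CPM. The remaining listed marker, Mb, which stores oxygen in muscle, had at most 12 counts in any library. Of 8 macrophage markers, 7 were lower and 1 higher, and their sum went from between 501 and 514 CPM to between 161 and 184 CPM. This sum too joins opposite changes, with log2 fold changes of single markers from -7.67 to 2.22. Of 5 endothelial markers tested, 4 were higher, and the sum of the list was at least 24.5 CPM in each Vector library and at least 52.9 CPM in each library labelled FTO, with Cldn5 at 0 throughout. Of 5 mural markers tested, 2 were higher and 3 lower, and the sum went from between 1190 and 1239 CPM to between 819 and 914 CPM. Single mural markers had log2 fold changes from -3.91 to 4.89, which the sum does not show. In bulk RNA, fewer cells of a type and less RNA per cell cannot be told apart.

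Of the 10 genes, 9 passed the filter on low counts and 8 of these differed with an adjusted p-value under 0.05 in edgeR, 5 of them higher (Hspb8, Hsph1, Bag3, Dnajb1 and Hspd1) and 3 lower (Hspa8, Hspb1 and Hsp90ab1) in the libraries labelled FTO. Among all genes tested, 65.9% passed that threshold, 33.2% higher and 32.8% lower, so being called was common in these data. The changes were mostly small. The median absolute log2 fold change was 0.19 over the 9 genes and 0.36 over all genes tested, and the median signed value was 0.11 against 0.00. Only Hspb8 passed the threshold named by the study (log2 fold change no smaller than 1, unadjusted p-value under 0.05), which 19.6% of all genes tested passed. In 8 of the 9 genes the values of the groups were fully separate, as was the case for 70.3% of all genes tested.

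**Figure D1:**
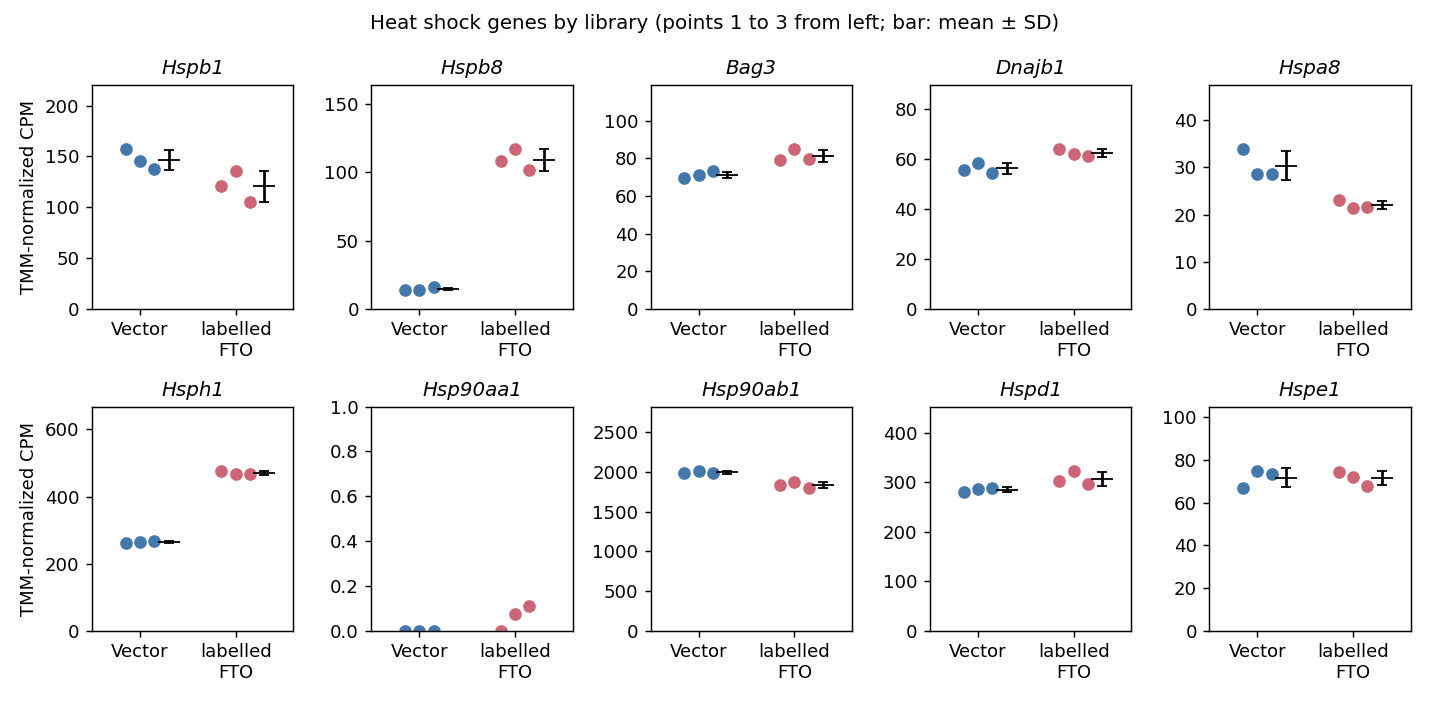
TMM-normalized CPM (vertical axes, each from 0) of the 10 heat shock genes in the 3 Vector libraries (blue) and the 3 libraries labelled FTO (red), with mean ± SD as black bars except for Hsp90aa1, which has at most 2 counts. Hspb8 lies at 13.9 to 15.7 CPM in Vector and at 102 to 117 CPM in the libraries labelled FTO, while the points of Hspe1 overlap.

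The small heat shock proteins moved in opposite directions. Hspb8, the partner of BAG3 in clearing damaged proteins, was at 13.9, 13.9 and 15.7 CPM in the 3 Vector libraries, in the order of their replicate numbers, and at 108, 117 and 102 CPM in those labelled FTO. All values of the second group lay far above all values of the first. Its log2 fold change was 2.91 (SE 0.0752), a 7.51-fold rise with a 95% interval of 6.72 to 8.39, and an adjusted p-value of 2.8e-14 in edgeR. Of all genes tested, 2.61% had a higher log2 fold change. Hspb1 (HSP27 in human), which holds unfolded proteins and binds actin filaments, was at 157, 145 and 138 CPM in Vector and at 121, 136 and 105 CPM in the libraries labelled FTO. The groups did not overlap, but the highest library labelled FTO came close to the lowest Vector library, and this gene had the largest spread in the second group among the 9 genes tested, with a coefficient of variation of 12.9%. It fell by 0.29 on the log2 scale (SE 0.0766, adjusted p-value 0.00403 in edgeR).

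The 2 genes were therefore counted in changed proportion within the same libraries, a measure that needs no scaling. Vector libraries held 11.3, 10.5 and 8.75 reads of Hspb1 for each read of Hspb8, and the libraries labelled FTO held 1.11, 1.16 and 1.03. The ratio was 9.20 times lower in the second group. With 3 libraries against 3, the two-sided exact permutation test cannot go below 0.1, and it gave that value here (0.125 after adjustment over the 5 pairs compared).

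Bag3, an exchange factor of HSP70 that also binds HSPB8, changed far less than Hspb8. It was at 69.5, 71.1 and 73.0 CPM in Vector and at 79.1, 85.0 and 79.9 CPM in the libraries labelled FTO. Each library of the second group lay above each Vector library, and the fold change was 1.14 (95% interval 1.06 to 1.23, adjusted p-value 0.00473 in edgeR). The ratio of Hspb8 reads to Bag3 reads went from 0.200, 0.195 and 0.215 to 1.37, 1.38 and 1.27, a 6.59-fold difference with an exact permutation p of 0.1, the smallest this design allows. Hspb8 reads were thus fewer than Bag3 reads in every Vector library and more in every library labelled FTO.

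The genes of the HSP70 cycle also split. Hsph1, the HSP110 exchange factor, rose in all libraries labelled FTO, from 261, 265 and 269 CPM in Vector to 477, 466 and 469 CPM. The libraries of each group lay close together, with coefficients of variation of 1.43% and 1.25%. The fold change was 1.78 (95% interval 1.68 to 1.88), or 0.83 on the log2 scale (SE 0.0385, adjusted p-value 3.6e-11 in edgeR), and 12.2% of all genes tested had a higher value. Dnajb1, the J protein that hands clients to HSP70 (HSP40 in older names), was at 55.6, 58.5 and 54.4 CPM in Vector and at 64.0, 61.8 and 61.3 CPM in the libraries labelled FTO. The groups did not overlap, and the fold change was 1.11 (95% interval 1.02 to 1.20, adjusted p-value 0.0259 in edgeR). This call was lost with DESeq2 (adjusted p-value 0.0738) and without Vector replicate 1, Vector replicate 3 or FTO replicate 1 (0.0812, 0.119 and 0.107 in edgeR).

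Hspa8, the constitutive HSP70 of the cytosol (HSC70), was at 33.9, 28.5 and 28.7 CPM in Vector and at 23.1, 21.4 and 21.6 CPM in the libraries labelled FTO. Each library of the second group was below each Vector library, and the gene fell by 0.46 on the log2 scale (SE 0.0850, adjusted p-value 2.1e-04 in edgeR). The value rests on a mean of 384 counts per library. RefSeq's gene table for the GRCr8 build names 33 pseudogenes after Hspa8, 23 after Hsp90ab1, 20 after Hspd1, 16 after Hsp90aa1 and 1 after Hspe1, against 0 after Hspb1, Hspb8, Bag3, Dnajb1 and Hsph1. How reads that match several copies were counted is not given in the sources used here, so the levels of the first 5 genes are uncertain to that extent, and the part of these copies in any change was not tested. Relative to Hspa8 in the same library, Hsph1 reads went from 7.69, 9.28 and 9.37 to 20.7, 21.8 and 21.7, and Dnajb1 reads from 1.64, 2.05 and 1.90 to 2.78, 2.89 and 2.84. These ratios were 2.45 and 1.53 times higher in the libraries labelled FTO, without overlap, each with an exact permutation p of 0.1 (0.125 adjusted over 5 pairs).

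Of the HSP90 pair, Hsp90aa1, the stress-inducible form, could not be assessed. It had 0 counts in the 3 Vector libraries and 0, 1 and 2 counts in the libraries labelled FTO. All 6 values lie at or under a floor of 3 counts, the upper limit that a count of 0 allows, which was worth 0.168 to 0.228 CPM. No fold change is given, and no ratio to Hsp90ab1. Hsp90ab1, the constitutive form, was at 1980, 2015 and 1986 CPM in Vector and at 1839, 1875 and 1799 CPM in the libraries labelled FTO. It had the most counts of the 10 genes, with a mean of 28190 per library, and all Vector libraries lay above all libraries labelled FTO. The fold change was 0.922 (95% interval 0.873 to 0.973, adjusted p-value 0.0107 in edgeR), and without Vector replicate 2 the adjusted p-value was 0.0557.

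Hspd1 and Hspe1 encode HSP60 and its lid HSP10, the mitochondrial chaperonin, and stand head to head in mammalian genomes. Hspd1 was at 279, 286 and 288 CPM in Vector and at 302, 323 and 296 CPM in the libraries labelled FTO. The groups did not overlap, and the fold change was 1.08 (95% interval 1.01 to 1.15, adjusted p-value 0.0412 in edgeR). The call was lost with DESeq2 (0.0730) and without Vector replicate 1, 2 or 3 or FTO replicate 1 or 2, at adjusted p-values from 0.0800 to 0.145 in edgeR. Hspe1 was at 66.8, 75.0 and 73.5 CPM in Vector and at 74.6, 72.2 and 67.9 CPM in the libraries labelled FTO. These values overlap, with an adjusted p-value of 0.930 in edgeR and a 95% interval of the fold change from 0.911 to 1.09, and the sign of the estimate was not the same with library size alone as the scaling. Hspe1 reads per Hspd1 read were 0.239, 0.262 and 0.255 in Vector and 0.247, 0.224 and 0.230 in the libraries labelled FTO, which overlap. The exact permutation p was 0.2 (0.2 adjusted over 5 pairs), in a design that cannot go below 0.1. The test can therefore not decide whether the proportion of ring to lid transcripts differed.

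**Figure D2:**
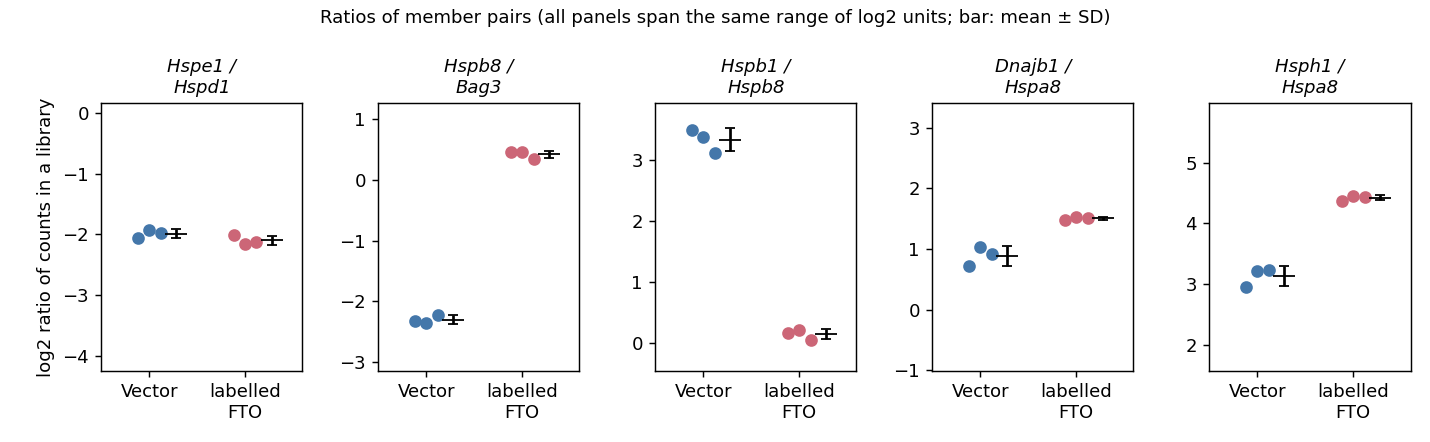
Log2 ratio of the counts of 2 heat shock genes within each library (vertical axes, each spanning the same number of log2 units), for 3 Vector libraries (blue) and 3 libraries labelled FTO (red), with mean ± SD as black bars. The ratio of Hspb8 to Bag3 lies near -2.30 in Vector and near 0.42 in the libraries labelled FTO, and the ratio of Hspe1 to Hspd1 overlaps between the groups.

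The sequence before the annotated starts was examined for heat shock elements, since most of these genes are textbook targets of HSF1. Of the 10 genes, 9 matched RefSeq's promoter table (GRCr8 build) by symbol, and the 250 bases before each start were searched for 2 units in alternating orientation, GAANNTTC or TTCNNGAA, each its own reverse complement. A match was found for 8 of the 9, Hsp90ab1 being the exception, and in 13.5% of all 33469 promoters in the table. The longer form of 3 units, GAANNTTCNNGAA or TTCNNGAANNTTC, which contains the shorter one and reads as the other on the opposite strand, was found for 4 of the 9 genes (Hspa8, Hsph1, Hspd1 and Hspe1) and in 0.663% of all promoters. The matches are printed here in stretches of 30 bases, 5′ to 3′ on the strand of the gene, with the matching letters in capitals. They are shown because genes that rose and genes that fell both held them, and their part in any change was not tested.
Hspb8 (chr12:45837274-45837303, + strand): agaagccaggaGAAGTTTCtaggcgcgtga
Bag3 (chr1:192533317-192533346, + strand): ggatgggaccaGAAGTTTCtagccggccag
Hspb1 (chr12:26432412-26432441, - strand): cttcaactagaGAAGTTTCcagatgggggc
Hspb1, nearer to the start (chr12:26432392-26432421, - strand): agatgggggcaGAACCTTCctggccctgcc
Dnajb1 (chr19:41431142-41431171, - strand): cgacgcatcgggaggggcgGAAGGTTCtgg
Hsph1 (chr12:10427252-10427281, + strand): gggtggaatctTTCTCGAAggctcgagaag
Hsph1, nearer to the start (chr12:10427323-10427352, + strand): tgccgcagaTTCTGGAAAGTTCtcctcagt
Hspa8 (chr8:50080292-50080321, + strand): ggcgagcgtGAAAGTTCCAGAAcgctgcgg
Hspa8, nearer to the start (chr8:50080450-50080479, + strand): gcggaacccTTCTGGAAGGTTCtaagacag
Hspe1 (chr9:64084256-64084285, + strand): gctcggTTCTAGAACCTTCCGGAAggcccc

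The matches differed in length and in distance from the start. Hspb8 and Dnajb1 held a single match of 2 units within 23 and 11 bases of the start, Bag3 held a single match 132 bases before it, and Hspb1 held a pair at 129 and 109 bases. Hsph1 had 3 units 36 bases before its start and 2 further units at 105 bases, and Hspa8 had 3 units both at 55 and at 213 bases. Hspd1 and Hspe1 share the longest run, 4 units over 18 bases on chromosome 9. It begins 65 bases before the start of Hspe1 and, read on the other strand, 242 bases before the start used for Hspd1, the starts lying 290 bases apart. A relation between the number of units and the change was not tested. Of the genes with 3 or more units, Hsph1 rose 1.78-fold, Hspa8 fell by 0.46 on the log2 scale, and Hspd1 and Hspe1 had fold changes of 1.08 and 0.996, while Hspb8, with the 7.51-fold rise, had 2 units. A match is a description of letters in this window and not a measured binding site.

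**Figure D3:**
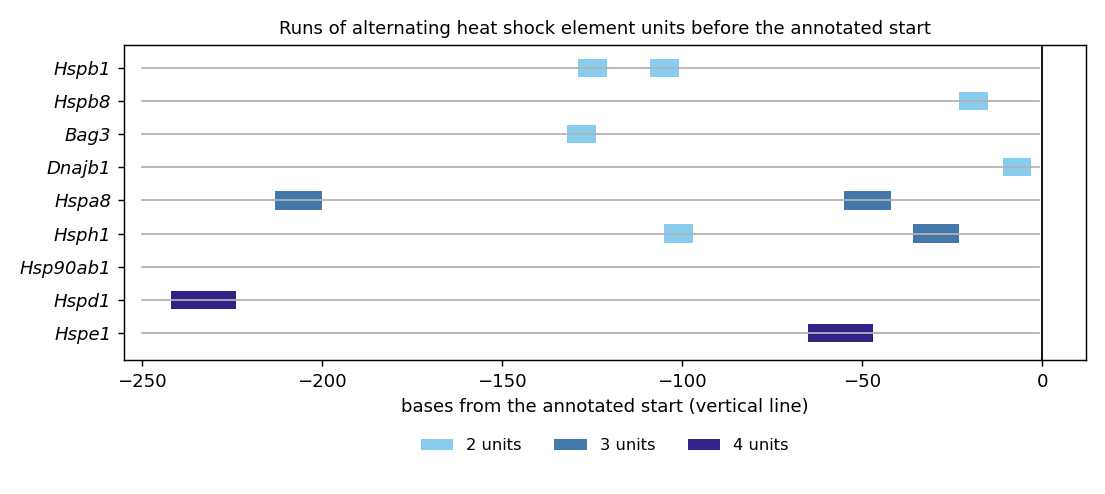
Position of the matches to alternating heat shock element units in the 250 bases before the annotated start (horizontal axis, bases from the start) of 9 heat shock genes, with bars coloured by the number of units in a run. Hspd1 and Hspe1 hold the runs of 4 units, and Hsp90ab1 holds none.

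Other genes of the chaperone network were taken from 9 lists. Of 83 genes tested, out of 89 listed, 28 were higher and 17 lower with an adjusted p-value under 0.05 in edgeR. That is 54.2% of those tested, against 65.9% of all genes, with a median of 0.06 on the log2 scale. In the list of heat shock factors, which also holds the factor-binding protein Hsbp1, 1 of 4 genes tested was called. Hsf1, the master regulator of the heat shock response, fell from 42.1 ± 1.06 to 32.6 ± 2.78 CPM (SD, 3 libraries each). Its log2 fold change was -0.37 (SE 0.0719, adjusted p-value 3.2e-04 in edgeR).

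The remaining small heat shock proteins were called in 4 of 5 cases (80%, against 65.9% of all genes tested), 3 higher and 1 lower. Hspb7, a small heat shock protein of heart and muscle, rose 1.32-fold, from 120 to 134 CPM in Vector to 160 to 174 CPM. Hspb2 rose 1.17-fold, a call lost without Vector replicate 1, Vector replicate 2 or FTO replicate 2 (adjusted p-values 0.0523, 0.0658 and 0.0544). Cryab, the αB-crystallin that is abundant in the heart, fell by 0.25 on the log2 scale (adjusted p-value 4.2e-05 in edgeR), from 532 to 547 CPM down to 443 to 462 CPM. The third increase was that of Hspb3, named after its values were seen, with 18, 15 and 20 counts in Vector and 34, 36 and 42 in the libraries labelled FTO (adjusted p-value 0.00232 in edgeR). Several of these genes are expressed in heart muscle, and the cardiomyocyte markers given above, 8 of which were tested, were higher in 7 cases and lower in 1, with a median log2 fold change of 1.21. The part of muscle cells in the changes of Hspb8, Hspb7 and Cryab was not tested.

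In the HSP70 group, 4 of 8 genes tested were called, 1 higher and 3 lower, with a median of -0.21. That is 50%, against 65.9% of all genes tested. Hspa2, an HSP70 best known from the testis, fell by 1.07 on the log2 scale (adjusted p-value 1.8e-07), and Hspa4, an HSP110 relative of Hsph1, fell by 0.16 (adjusted p-value 0.00230). The decrease of Hspa4 stands beside the 0.83 rise of Hsph1 on the same log2 scale. Hspa12b, a distant HSP70 relative of endothelial cells, rose 1.45-fold (adjusted p-value 7.3e-05). Of the 5 endothelial markers tested, 4 were also higher, and their part in this was not tested. The stress-inducible pair was singled out after its values were seen. Hspa1a had 0 counts in all 6 libraries, and Hspa1b had 75, 63 and 61 counts in Vector and 19, 26 and 31 in the libraries labelled FTO, which is 4.64 ± 0.728 against 1.67 ± 0.319 CPM and a log2 fold change of -1.46 (SE 0.215, adjusted p-value 2.4e-05 in edgeR). Both are near-identical copies, and how the reads they share were counted is not given in the sources used here. The levels of both genes are uncertain to that extent.

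Cochaperones of HSP70 included larger changes than most of the 10 genes. Among 12 J proteins, 6 were higher and 1 lower, a share called of 58.3% against 65.9% of all genes tested. Dnaja1 and Dnajb6 each rose 1.49-fold (adjusted p-values 8.1e-09 and 4.3e-08), and Dnajb4, a close relative of Dnajb1, fell by 0.78 on the log2 scale, from 135 CPM in each Vector library to 78.7 to 79.1 CPM (adjusted p-value 4.8e-10 in edgeR). Among the exchange factors, 3 of 5 tested were higher and 1 lower, a share called of 80%. Bag4 rose 2.29-fold and Hspbp1 1.27-fold, whereas Bag2, which slows the hand-over of HSP70 clients to degradation, fell by 1.12 on the log2 scale (adjusted p-value 3.2e-10). Bag2 and Bag3 thus lay on opposite sides of 0.

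Cochaperones of HSP90 were called in 8 of 14 cases, 3 higher and 5 lower, with a median of -0.06. That is 57.1%, against 65.9% of all genes tested. Fkbp5, an immunophilin and a well-known glucocorticoid target, rose 1.66-fold (adjusted p-value 1.2e-08), and Cacybp rose 1.19-fold. Unc45a, a myosin chaperone, fell by 0.41 on the log2 scale (adjusted p-value 5.4e-06) and Ppid fell by 0.30. Subunits of the cytosolic chaperonin TRiC, which folds actin and tubulin, changed little. Of 8 subunits, 4 were higher and 1 lower (62.5% called), with log2 fold changes from -0.15 (Cct2) to 0.15 (Cct5). Cct7 rose 1.10-fold, but its adjusted p-value was from 0.0525 to 0.0732 in 5 of the 6 fits that left out 1 library, the exception being FTO replicate 3, and Cct5 no longer passed without Vector replicate 3.

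In the mitochondrion, 7 of 14 genes tested beyond Hspd1 and Hspe1 were called (50%, against 65.9% of all genes tested), 4 higher and 3 lower. Hspa9, the mitochondrial HSP70 (mortalin), fell by 0.53 on the log2 scale, from 421 ± 3.03 to 292 ± 12.7 CPM (adjusted p-value 2.8e-08 in edgeR), while Grpel1, its exchange factor, rose 1.30-fold (adjusted p-value 2.4e-04). Clpp, the peptidase of the matrix, rose 1.44-fold and Clpb, a disaggregase, fell by 0.29 on the log2 scale. The groups overlapped for Clpb, and its adjusted p-value was 0.174 without Vector replicate 2 and 0.111 without FTO replicate 1. Against these values, the changes of the chaperonin genes were small, with log2 fold changes of 0.11 for Hspd1 and -0.01 for Hspe1.

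The ER counterparts were compared briefly. Hspa5, the HSP70 of the ER, had a fold change of 0.962 (95% interval 0.908 to 1.02, adjusted p-value 0.211 in edgeR), and Hsp90b1, the HSP90 of the ER, of 1.04 (0.982 to 1.09, adjusted p-value 0.230). Of 13 ER chaperones, 4 were higher and 1 lower. P4hb, protein disulfide isomerase, rose 2.52-fold (adjusted p-value 6.7e-14), Sdf2l1 rose 1.31-fold and Dnajc3 fell by 0.23 on the log2 scale. The share of the ER list called was 38.5%, against 65.9% of all genes tested.

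**Figure D4:**
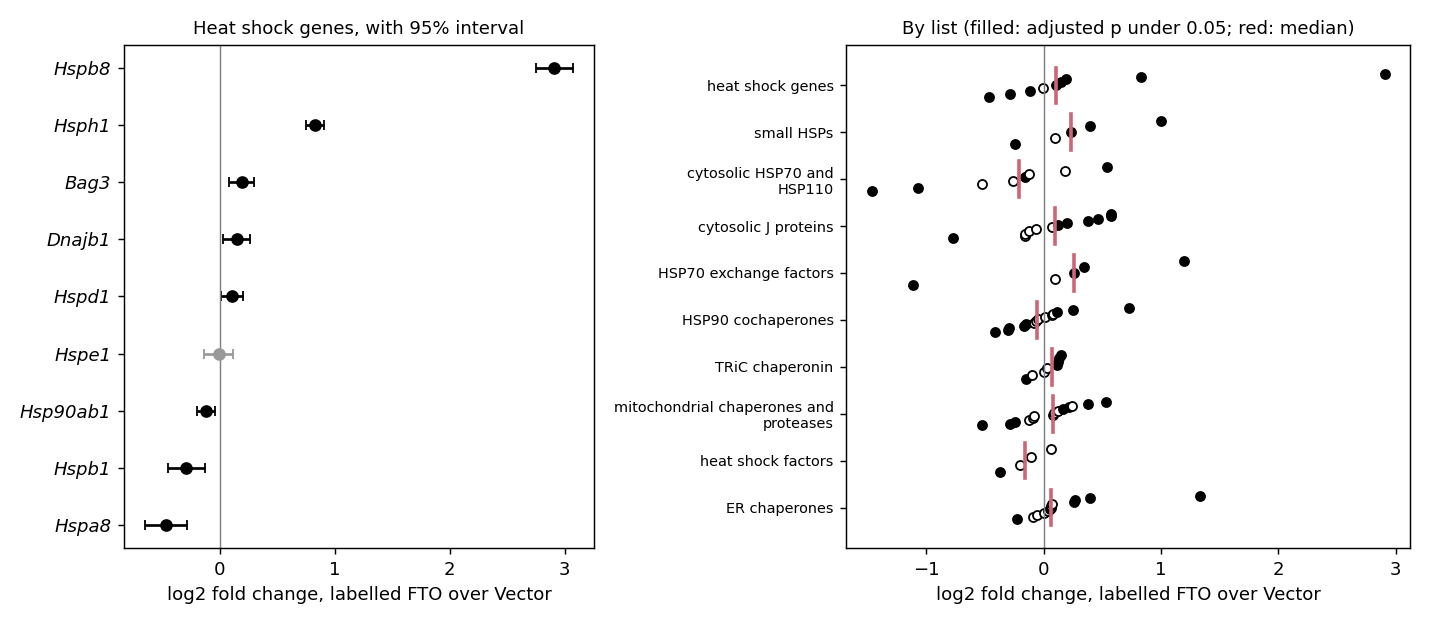
Log2 fold change between the groups (horizontal axes, positive where higher in the libraries labelled FTO), on the left for the 9 heat shock genes tested with the 95% interval (black: adjusted p-value under 0.05, grey: not), on the right for each gene tested of 10 lists, filled where the adjusted p-value was under 0.05, with the median of each list in red. Hspb8 at 2.91 lies above all other genes shown, and most values lie near 0.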

How the data were processed

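RNA-seq of 6 NRCF libraries was analysed, grouped by the genotype labels and numbered by the sample titles. The deposited values are raw counts, given as whole numbers for each gene symbol. Per the labels, libraries were made from total RNA with the NEBNext Ultra kit. The submitters' processing notes name Trimmomatic and the rn6 build. The aligner, counting program, annotation and use of strand are not given in the sources used here.

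Genes were kept with filterByExpr (minimum count 10), scaled by TMM and compared with glmQLFit and glmQLFTest of edgeR 4.0.16 in R 4.3.3, two-sided, with no covariate, and p-values were adjusted by Benjamini-Hochberg over 12941 genes. Intervals are 95% intervals of that fit. Ratios were compared by exact permutation tests over libraries in scipy 1.17.1. The floor of 3 counts covers counting error alone, and the labels mention no molecular identifiers. Libraries of a group differed by more than sampling noise (chi-square per degree of freedom 1.58 to 8.39). The procedure was tested on simulated data.

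The members and lists were chosen with earlier results of these data known. The rule for named genes took Fto, the 10 genes, Hspa5, Hsp90b1 and, in each other list of chaperone genes, of those that passed the adjusted threshold of 0.05 with 100 or more counts on average, the 2 largest increases and the 2 largest decreases. Mb and Cldn5 were named as marker genes at or near 0. The endothelial marker Vwf (4 to 13 counts per library) and the mural marker Rgs5 (4 to 15) were not tested either. Hspb3, Hspa1a and Hspa1b fall outside it and were chosen after their values were seen. The alternatives tried were DESeq2 1.42.0, limma-voom (limma 3.58.1), DESeq2 size factors, library size alone, 2 other filters, the replicate number as a block, and leaving out each library. Promoter sequences come from RefSeq (GRCr8 build), which is not the build of the counts. They were matched by symbol alone. A comparison of fold changes across all genes by promoter match was not made.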

Additional observations from a re-analysis of the deposited data

How the results depend on the processing

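Of the 9 heat shock genes tested, 5 kept their call and direction under all 13 alternatives (Hspb8, Hsph1, Bag3, Hspb1 and Hspa8), with Hspb8 at log2 fold changes from 2.86 to 2.97 and Hsph1 from 0.81 to 0.84. The other 4 lost 12 calls in all and changed sign 4 times. The sign changes were those of Hspe1, at 0.0014 with library size alone, 0.0241 without Vector replicate 2, 0.0072 without Vector replicate 3 and 0.0282 without FTO replicate 3, none of which passed, and the cause was not tested. Without single libraries its log2 fold change ran from -0.0575 to 0.0282. The number of heat shock genes past the adjusted threshold ranged from 6 to 8 when single libraries were left out. The share of all genes tested past it was then 60.2% to 66.5%. With DESeq2, 6 heat shock genes passed, as did 60.2% of all genes tested. The number of heat shock genes past the study's threshold was 1 under all 13. Among all genes tested, that threshold was passed by between 2489 (of 12878) and 3191 (of 17166). Among 29 other chaperone genes named, 11 calls were lost in 4 genes and no direction changed. Fto passed under none of its 13 alternatives (adjusted p-values 0.18 to 0.45). Replicate numbers did not pair the libraries, since deviations from the group means correlated at 0.003, -0.069 and 0.021 for the same number. With the replicate number as a block, the log2 fold change of Hspd1 was 0.11 at an adjusted p-value of 0.0537 in edgeR. In that fit, 7 heat shock genes and 64.9% of all genes tested passed. Hsp90aa1 and Hspa1a had too few counts to be tested, and the cause was not tested.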
